A study of Mus musculus with 28 samples.

Results

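The 4 libraries described here ask what interferon gamma (IFNG) changes in tumour cells that also receive tumour necrosis factor (TNF). They are 2 libraries of cells given TNF and IFNG together for 6 hours and 2 libraries of cells given TNF alone for 6 hours, 4 of the 28 samples of the series. The comparison was chosen by these treatment labels and runs over every gene of the in vitro table. All of these cells are MC38, an established mouse colon adenocarcinoma line of C57BL/6 origin, unmodified as far as the labels say, and grown in DMEM with fetal calf serum and antibiotics. Another 2 libraries of cells given IFNG alone for 6 hours and 2 of untreated cells show the same cytokine without TNF. These 2 groups share no library with the first 2. The cytokine doses are not given in the sources used here. RNA was read from the 3' end of transcripts (QuantSeq), and each value is the normalized log2 CPM of the authors. A difference of 1 is a doubling of the normalized value. CPM are read counts scaled to a common library total, but these values were adjusted further. The highest is 16.06 in every in vitro library, which such scaling alone would not give, and the medians are 3.90 to 3.92. The lowest value still differs, at -3.76 in both TNF libraries, -3.60 in the first TNF + IFNG library and -2.34 in the second. Nothing in the labels ties replicates to separate cultures, so a p-value here measures only the spread among these libraries, which may be technical.

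IFNG binds the receptor chains Ifngr1 and Ifngr2 and activates the kinases Jak1 and Jak2, which phosphorylate STAT transcription factors. STAT dimers bind GAS elements, and a complex that holds Stat2 and Irf9 binds interferon-stimulated response elements (ISRE). TNF acts through another route, the release of NF-kB from its inhibitors, of which Nfkbia is one. In tumour cells IFNG is known for raising antigen presentation, the chemokines that draw T cells through their receptor CXCR3, and Cd274, the ligand of the inhibitory receptor PD1.

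The 2 TNF + IFNG libraries stood further apart than those of any other group of these 8 libraries. Their replicate standard deviation over genes was 0.58 on the log2 scale, against 0.43 for IFNG, 0.44 for untreated and 0.46 for TNF. Across genes, which are not independent replicates, the 2 libraries correlated with each other at Pearson r = 0.948. The first of them correlated with the IFNG libraries at 0.963 and 0.959, and with the second TNF library at 0.952. With the 2 libraries of cells given co-culture supernatant it correlated at 0.935 and 0.966. All of these but the 0.935 lie above its correlation with its own replicate. The second TNF + IFNG library correlated most with the first, and next with the second TNF library (0.946). Whether the labels of these libraries are right was not tested, and every call below rests on them. The second had the lowest implied depth of the in vitro table, about 3360000 reads against 7150000 for the first and 7360000 and 8560000 for the TNF libraries, as read from the steps of the lowest values. Of 10 markers listed for MC38, the 3 with a row (Vim, Fn1, Cdh1) had a summed level of 9.83 to 10.2 (log2 of the summed CPM) with TNF + IFNG and 10.03 to 10.2 with TNF, most of it from Vim. The defining epithelial genes Epcam, Krt8, Krt18 and Krt19 have no row. Of 14 T cell markers only Lck and Gzma have a row, with a summed level of 0.27 to 0.41 with TNF and 0.46 to 2.71 with TNF + IFNG, and Cd3d, Cd3e and Cd8a have none. The 3 of 9 macrophage markers with a row summed to 2.24 to 2.47 with TNF and 1.66 to 1.91 with TNF + IFNG, and the 4 of 7 fibroblast markers to 6.78 to 6.79 and 6.51 to 6.63. The part of these markers in the results was not tested.

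Adding IFNG to TNF raised 50 of 12720 tested genes (0.393%) and lowered 3 (0.0236%), together 0.417%, at an adjusted p under 0.05 by limma with Benjamini-Hochberg adjustment over all genes. Of the 50 genes that rose, 48 did so by more than 2-fold. The genes that rose include immunity related GTPases, guanylate binding proteins, CXCR3 ligands and STAT and IRF factors. The median change over all genes was -0.01 on the log2 scale. A change had a 95% confidence interval, before adjustment, of ± 0.59 at the median. The smallest change that passed was 0.89 in absolute value. Changes well under 2-fold were thus mostly not detectable, and larger ones could be missed. At an unadjusted p under 0.05, 1032 genes were higher (8.11%) and 1065 lower (8.37%). These shares of all genes are the reference for the gene lists below. At a share of 0.417%, 0 calls in a list of up to 42 genes does not set it apart from all genes. The libraries of both groups did not overlap for 3026 genes that were higher (23.8%) and 2830 that were lower (22.2%), among them all 50 that rose. The total of 53 was 37 without the second TNF + IFNG library and 256 without the first, when 104 genes were higher and 152 lower. Of those 152, 129 were also below TNF and 47 had an unadjusted p under 0.05 with the first library alone.

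**Figure D1:**
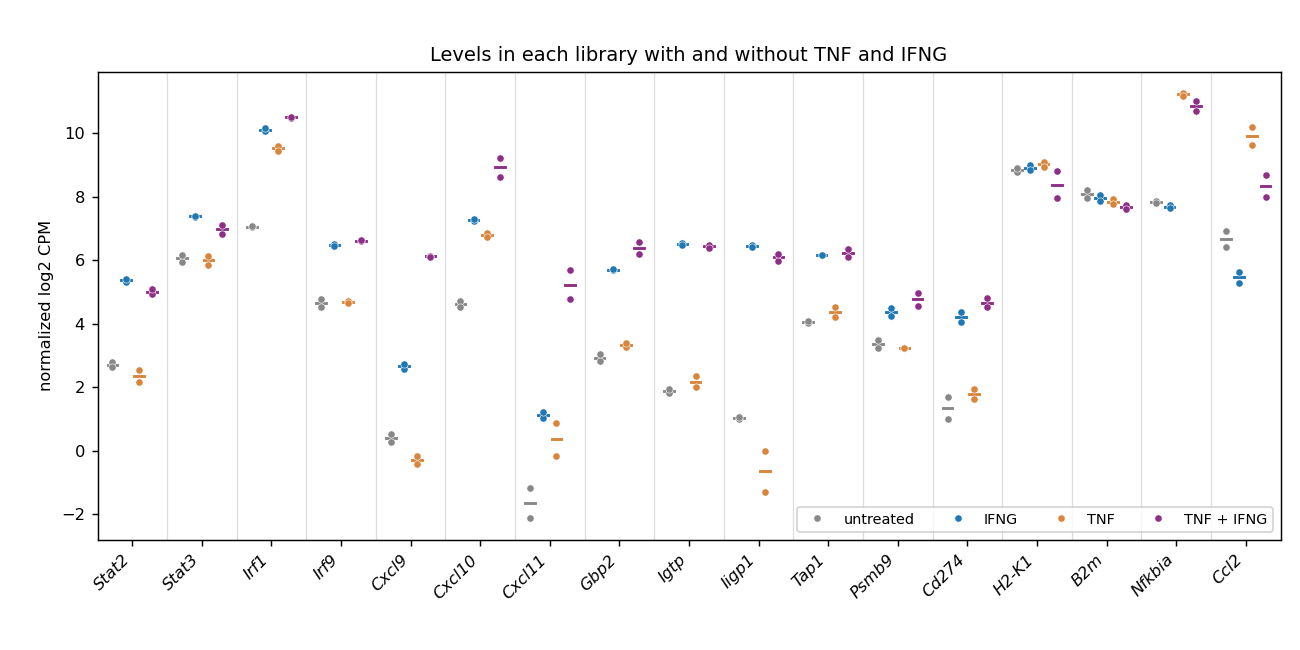
Normalized log2 CPM (y axis) of selected genes in the 2 libraries each of untreated, IFNG, TNF and TNF + IFNG cells; points are libraries and short bars their means. Cxcl9 stands near 6.1 with TNF + IFNG against 2.58 and 2.74 with IFNG and below 0 with TNF, whereas B2m lies between 7.60 and 8.20 in all 8 libraries.

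The signalling chain itself responded in its transcription factors, among them Stat2 and Stat3. Stat2, part of the complex that binds ISRE, had log2 levels of 2.53 and 2.18 with TNF and 4.93 and 5.09 with TNF + IFNG. The groups lay far apart, and the increase was 2.66 ± 0.18 (SE; 6.31-fold, adjusted p = 0.000264). Stat3, a STAT mostly activated by other cytokines, went from 6.13 and 5.86 to 7.12 and 6.83, an increase of 0.98 ± 0.16 (adjusted p = 0.0442). The Stat3 call was lost without any one of the 8 untreated, IFNG, TNF and TNF + IFNG libraries (adjusted p up to 0.228), whereas Stat2 passed without each of the 10 libraries. The receptor chains and kinases did not pass the test. Ifngr1 differed by -0.37 ± 0.32 (adjusted p = 0.583) and Ifngr2 by -0.45 ± 0.25 (0.392). Ifngr2 stood at 4.57 in both TNF libraries, above 3.41 and 3.10 in untreated cells, and at 4.44 and 3.80 with both cytokines. Jak1 differed by 0.43 ± 0.18 (0.276) and Jak2 by 0.33 ± 0.16 (0.345).

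Of 7 tested feedback inhibitors of STAT signalling, 0 passed the test and 3 had an unadjusted p under 0.05, all higher. Socs1, which blocks the JAK kinases, stood at 6.10 and 5.64 with TNF and 5.39 and 6.15 with TNF + IFNG. These ranges overlap, and both lie above the 4.23 and 4.59 of untreated cells, while IFNG alone had 5.83 and 6.08. Socs3 stood at -0.16 and 0.18 with TNF and 1.00 and 2.04 with both (1.51 ± 0.56, adjusted p = 0.246).

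Among 7 tested interferon regulatory factors, Irf9 and Irf1 rose. Irf9, the DNA-binding partner of Stat2, went from 4.71 and 4.66 to 6.61 and 6.63, an increase of 1.94 ± 0.16 (adjusted p = 0.000967). Irf1, a factor that carries the IFNG response to a second wave of genes, went from 9.60 and 9.44 to 10.47 and 10.53. The groups do not overlap, yet the increase was only 0.98 ± 0.12 (1.97-fold, adjusted p = 0.00983). It was lost without the second TNF library (adjusted p = 0.115) and without the second TNF + IFNG library (0.052). In cells without TNF, Irf1 stood at 7.04 and 7.07 untreated and at 10.08 and 10.15 with IFNG. Irf2, which binds the same sites as Irf1, was higher by 0.81 ± 0.16 without passing (adjusted p = 0.0888). Irf8 was near the lowest values with TNF, at -2.34 and -1.11, and at 0.77 and 0.57 with both (adjusted p = 0.246). Irf7 levels overlapped.

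The CXCR3 ligands were the list with the highest median change of those with at least 3 tested members: 3 of 3 rose, with a median of 4.87 on the log2 scale, against -0.01 over all genes. Cxcl9 stood at -0.40 and -0.16 with TNF and at 6.15 and 6.11 with TNF + IFNG. That is an increase of 6.41 ± 0.23 (85.0-fold, adjusted p = 8.22e-06). Cxcl9 stood at 0.52 and 0.28 in untreated cells and at 2.58 and 2.74 with IFNG alone, so both TNF + IFNG libraries lay more than 3 log2 units above every other of these libraries. Cxcl10 stood at 6.85 and 6.75 with TNF, above the 4.71 and 4.53 of untreated cells, and at 8.63 and 9.22 with both, an increase of 2.13 ± 0.26 (adjusted p = 0.0105). The Cxcl10 call was lost without the first or second TNF library (adjusted p = 0.075 and 0.115) or the second TNF + IFNG library (0.068). Cxcl11 stood at -0.16 and 0.89 with TNF and at 5.69 and 4.77 with both, an increase of 4.87 ± 0.48 (adjusted p = 0.00279). IFNG alone left Cxcl11 at 1.05 and 1.23. The annotation lists mouse Cxcl11 as a polymorphic pseudogene, since some strains carry a disrupted copy. Whether the copy in these cells makes a working ligand was not tested, so the 3 of 3 is a count of transcripts. The 3 genes lie side by side on chr5:92321347-92365485 (GRCm38).

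The other 13 tested chemokine and cytokine genes included 0 that passed, with a median of -0.07, and at an unadjusted p under 0.05 2 were higher and 1 lower. Ccl5, a chemokine for T cells, stood at 6.72 and 6.74 with TNF and 7.48 and 7.41 with both (0.71 ± 0.16, adjusted p = 0.155). Ccl2, the monocyte chemokine, stood at 10.18 and 9.62 with TNF and 7.99 and 8.70 with both (-1.56 ± 0.43, adjusted p = 0.183). Its levels were 6.43 and 6.92 in untreated cells and 5.64 and 5.30 with IFNG. Ccl7 (-0.94 ± 0.42) and Cxcl1 (-0.83 ± 0.52) had negative differences that did not pass (adjusted p = 0.305 and 0.445), and the Cxcl1 groups overlap.

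To set these levels beside the sequence at the start sites, windows of 300 bases (250 before to 50 after the start, RefSeq, GRCm38.p6) are shown for 4 genes, 5' to 3' in the direction of the gene. Cxcl9 and Irf1 are the genes whose response differed with TNF, Cxcl10 is a ligand whose level was higher with either cytokine, and Gbp2 stands for the GTPases. Capitals mark matches to ISRE (GAAANNGAAA), GAS (TTCNNNGAA) or the NF-kB consensus, searched on both strands.
Cxcl9, chr5:92328030-92328329, minus strand: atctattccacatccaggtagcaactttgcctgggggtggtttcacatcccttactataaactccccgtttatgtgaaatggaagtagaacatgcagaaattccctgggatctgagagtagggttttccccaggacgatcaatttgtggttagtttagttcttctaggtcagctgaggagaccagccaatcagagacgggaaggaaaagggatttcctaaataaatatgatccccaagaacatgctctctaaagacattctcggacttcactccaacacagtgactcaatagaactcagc
Cxcl10, chr5:92348840-92349139, minus strand: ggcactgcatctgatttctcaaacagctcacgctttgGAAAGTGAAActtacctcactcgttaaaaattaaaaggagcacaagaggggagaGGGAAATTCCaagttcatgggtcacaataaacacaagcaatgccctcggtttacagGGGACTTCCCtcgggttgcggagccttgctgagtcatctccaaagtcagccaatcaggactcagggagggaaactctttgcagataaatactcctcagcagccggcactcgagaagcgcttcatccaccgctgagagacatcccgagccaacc
Irf1, chr11:53769764-53770063, plus strand: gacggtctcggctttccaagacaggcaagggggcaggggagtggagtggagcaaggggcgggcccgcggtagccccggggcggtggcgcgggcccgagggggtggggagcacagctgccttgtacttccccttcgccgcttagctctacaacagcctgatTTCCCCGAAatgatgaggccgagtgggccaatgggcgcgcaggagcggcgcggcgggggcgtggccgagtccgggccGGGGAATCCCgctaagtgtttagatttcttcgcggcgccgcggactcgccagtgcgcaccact
Gbp2, chr3:142620413-142620712, plus strand: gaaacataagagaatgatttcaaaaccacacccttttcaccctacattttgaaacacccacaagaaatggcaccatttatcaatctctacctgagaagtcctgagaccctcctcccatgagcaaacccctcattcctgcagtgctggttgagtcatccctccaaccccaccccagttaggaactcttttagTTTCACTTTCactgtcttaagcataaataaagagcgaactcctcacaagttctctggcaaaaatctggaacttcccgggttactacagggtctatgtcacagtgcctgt
In Cxcl10 the ISRE begins 213 bases before the start and the NF-kB matches 159 and 103 bases before it. In Irf1 the GAS begins 90 bases and the NF-kB match 13 bases before the start. A second Irf1 window, at chr11:53770223-53770522, is not shown and has none of the 3 patterns. In Gbp2 the ISRE begins 59 bases before the start, and in Cxcl9 none of the 3 patterns is in this window. These matches do not overlap one another. Of the 50 genes that rose, 32 matched a gene with a window. An ISRE was in a window of 53.1% of them, against 3.7% of the 8646 tested genes with windows. A GAS was in 28.1% against 8.07%, and an NF-kB match in 15.6% against 6.13%. Only 3 genes (Cxcl10, Irf1 and Mob3c) had an NF-kB match together with a GAS or ISRE, and 11 had none of the 3. A match is a description of the letters, and neighbouring genes of 1 family are not independent of each other.

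**Figure D2:**
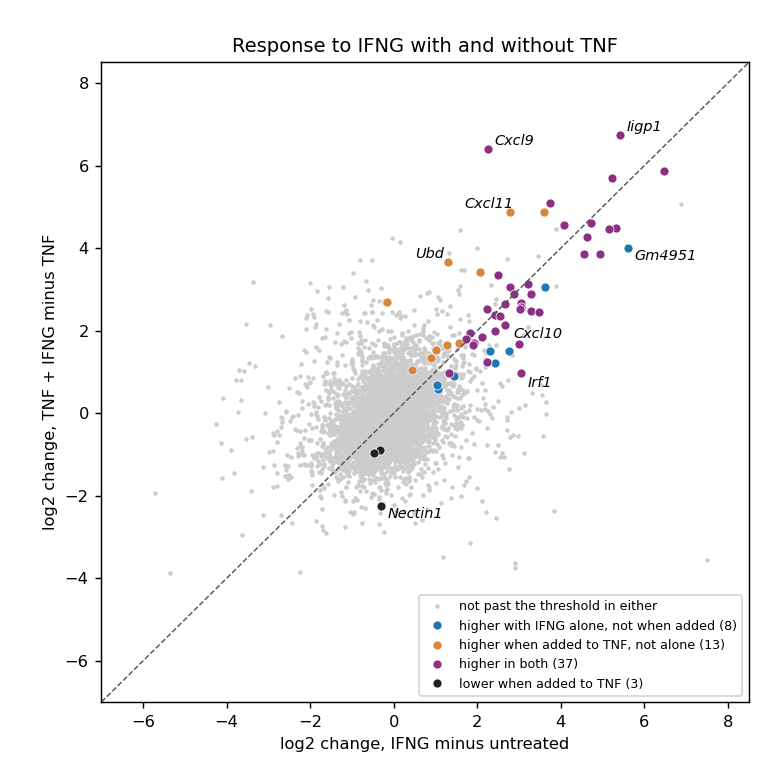
Log2 change with IFNG added to TNF (y axis) against log2 change with IFNG alone (x axis) for 12720 genes; grey points did not pass in either comparison, colours give the calls and the dashed line marks equal changes. Cxcl9 lies far above the line (6.41 against 2.26) and Irf1 below it (0.98 against 3.06). Batf2 and Gm12185, at the lowest value in both TNF libraries, are drawn at their fitted change.

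Immunity related GTPases, which attack the vacuoles of intracellular parasites, made up the largest group of genes that rose: 9 of 12 tested, with a median change of 4.13. Iigp1 had the highest fold of all genes, with -1.30 and 0.01 under TNF and 5.99 and 6.19 under both cytokines (6.74 ± 0.36, 107-fold, adjusted p = 4.47e-05). Igtp went from 2.00 and 2.36 to 6.49 and 6.40 (4.26 ± 0.19, adjusted p = 2.99e-05). Irgm1 and Irgm2, regulatory members of the family, rose by 2.45 ± 0.26 and 3.86 ± 0.44, and Irgm2 was lost without the second TNF library (adjusted p = 0.0749). Tgtp1 and Tgtp2 rose by 4.48 and 4.46, but they are near-identical copies whose reads may be split between them. Gm4951 (4.00 ± 0.74, adjusted p = 0.0842) and 9930111J21Rik2 (3.05 ± 0.57, 0.085) did not pass, although both had passed with IFNG alone. Irgq, a divergent member, stood at 4.03 and 4.07 with TNF and 4.72 and 4.42 with both (adjusted p = 0.388). With only the TNF and TNF + IFNG groups fitted, the count of 9 was 6.

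Of 7 tested guanylate binding proteins, large GTPases that act on pathogen membranes, 5 rose with a median of 2.89 over the 7. Gbp7 went from 3.76 and 4.15 to 7.07 and 7.10 (3.13 ± 0.16, adjusted p = 4.47e-05). Gbp2 went from 3.27 and 3.40 to 6.21 and 6.58 (3.06 ± 0.17, adjusted p = 5.88e-05). Gbp2b stood at 0.21 and 0.16 untreated, 3.44 and 3.51 with IFNG, 2.10 and 3.04 with TNF, and 5.55 and 5.37 with both, so the TNF + IFNG libraries were above all others. Gbp3 rose by 2.52 ± 0.22 and Gbp4 by 2.53 ± 0.36, the latter lost without either IFNG library, either TNF library or the second TNF + IFNG library (adjusted p up to 0.176). Gbp8 was higher by 3.89 ± 1.12 without passing (adjusted p = 0.202), with 1 TNF library at the lowest value, and Gbp9 by 1.44 ± 0.46 (0.216). Gbp4 overlaps Gbp8 and Gbp9 in the annotation, so reads cannot be assigned among them with certainty.

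Few of the broader interferon-stimulated genes passed the test. Of 37 tested antiviral genes of the list, only Ifi47, itself a GTPase of the same family as Igtp, passed (2.47 ± 0.27, adjusted p = 0.00538), and 15 had an unadjusted p under 0.05, all higher. The median of the list was 0.53, and 31 of 37 changes were positive. Isg15, the ubiquitin-like protein typical of type I interferon responses, stood at 5.70 and 5.48 with TNF and at 5.59 and 5.56 with both. Ifit3 went from 1.35 and 1.08 to 3.22 and 2.34 without passing (1.56 ± 0.33, adjusted p = 0.128). Of 11 sensors of cytosolic nucleic acid, 0 passed and 4 had an unadjusted p under 0.05. Zbp1, a sensor of Z-form nucleic acid that can start necroptosis, was at the lowest value in both TNF libraries and at -0.33 and 0.30 with both cytokines (adjusted p = 0.156). Among 7 interferon-responsive PARP genes, Parp14 and Parp9 rose by 1.68 ± 0.22 and 1.65 ± 0.23 (adjusted p = 0.0165 and 0.0184). Both were lost without the first TNF library or the second TNF + IFNG library, and Parp9 also without either IFNG library or the second TNF library (adjusted p up to 0.147).

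Of the genes that prepare peptides for class I molecules, Tap1 and Psmb9 rose. Tap1, a subunit of the transporter that carries peptides into the endoplasmic reticulum, went from 4.21 and 4.55 to 6.37 and 6.09 (1.85 ± 0.16, adjusted p = 0.00136). It was the 1 gene of 9 in the peptide loading list that passed. Tap2, the other subunit of the transporter, stood at 4.54 and 4.07 with TNF and 2.72 and 3.98 with both (-0.96 ± 0.74, adjusted p = 0.528). Tapbp was higher by 1.07 ± 0.28 (adjusted p = 0.174) and Nlrc5, the activator of class I genes, by 1.50 ± 0.37 (0.166). Psmb9, a catalytic subunit of the immunoproteasome encoded beside Tap1, went from 3.23 and 3.25 to 4.56 and 4.99 (1.53 ± 0.22, adjusted p = 0.0237). The Psmb9 call was lost without either IFNG library, either TNF library or the second TNF + IFNG library (adjusted p up to 0.154). Psmb8, another such subunit, stood at 5.40 in both TNF libraries and at 5.03 and 5.71 with both cytokines, and Psmb10 was higher by 0.55 ± 0.16 (adjusted p = 0.206). Of 14 tested subunits of the constitutive proteasome 0 passed, and 1 was lower at an unadjusted p under 0.05.

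The class I chains themselves did not pass the test. Of 11 tested, 0 passed, 3 had an unadjusted p under 0.05, all lower, and the median change was -0.52. B2m, the light chain, stood at 7.94 and 7.76 with TNF and 7.74 and 7.60 with both (-0.18 ± 0.15, 95% interval -0.51 to 0.16). H2-K1 stood at 9.11 and 8.93 with TNF and 8.81 and 7.97 with both (-0.64 ± 0.24, adjusted p = 0.246), the lower value in the second library. Without the first TNF + IFNG library H2-K1 passed as lower (-1.06, adjusted p = 0.0273). With IFNG alone the median of these 11 genes was -0.53. H2 genes are near-identical in places, and reads at their 3' ends may not be told apart. Of the class II pathway only H2-DMb1 has a row (0.10 ± 0.23).

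Cd274 was the 1 of 7 checkpoint ligands that rose. It stood at 1.94 and 1.63 with TNF and at 4.53 and 4.80 with both, with no overlap, an increase of 2.88 ± 0.38 (7.37-fold, adjusted p = 0.0157). IFNG alone had 4.06 and 4.38, and untreated cells 1.01 and 1.69. The call was lost without the first or second TNF library (adjusted p = 0.0752 and 0.136) or the second TNF + IFNG library (0.116), with a change of 2.72 to 3.04. Cd47, the signal that restrains phagocytes, differed by 0.30 ± 0.16 (adjusted p = 0.355) and Nectin2 by -0.06 ± 0.39 (0.953).

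The list of NF-kB targets, which does not hold Irf1 or Cxcl10, had no call when IFNG was added. Of its 36 tested members 0 passed, against 0.417% of all genes, and the median was 0.00. At an unadjusted p under 0.05, 3 were higher and 3 lower, near the shares of all genes (8.11% and 8.37%). Nfkbia stood at 11.28 and 11.18 with TNF, far above 7.87 and 7.79 in untreated cells, and at 11.01 and 10.69 with both (-0.38 ± 0.14, adjusted p = 0.246). Tnfaip3, the A20 deubiquitinase, stood at 2.55 and 2.25 with TNF and with both its 2 libraries lay on either side of these (-0.06 ± 0.85). Vcam1, an adhesion molecule for T cells, stood at 8.22 and 8.15 and at 8.21 and 7.64 (adjusted p = 0.528). Among 7 tested adhesion molecules for T cells and 8 enzymes known from IFNG responses 0 passed, and each list had 1 higher and 1 lower member at an unadjusted p under 0.05.

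Cell death genes were tested because TNF can kill sensitised cells. Of 42 genes of the death receptor pathway 0 passed, against 0.417% of all genes, and the median was 0.08. At an unadjusted p under 0.05, 7 were higher and 3 lower, against 8.11% and 8.37% of all genes. Fas, a death receptor, stood at 3.27 and 2.49 with TNF and at 2.75 and 3.20 with both, against 0.21 and 0.77 untreated. Tnfsf10, the ligand TRAIL, was low with TNF at -2.34 and -1.11 and stood at 0.77 and 0.81 with both (2.52 ± 0.74, adjusted p = 0.206). Casp8 differed by 0.28 ± 0.21 and Ripk1 by 0.57 ± 0.24 (adjusted p = 0.518 and 0.283). Of 6 pyroptosis genes 0 passed and 1 had an unadjusted p under 0.05, with Casp4 higher by 0.81 ± 0.28 (adjusted p = 0.231) and Gsdmd at 2.65 and 2.52 with TNF and 2.72 and 2.52 with both.

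**Figure D3:**
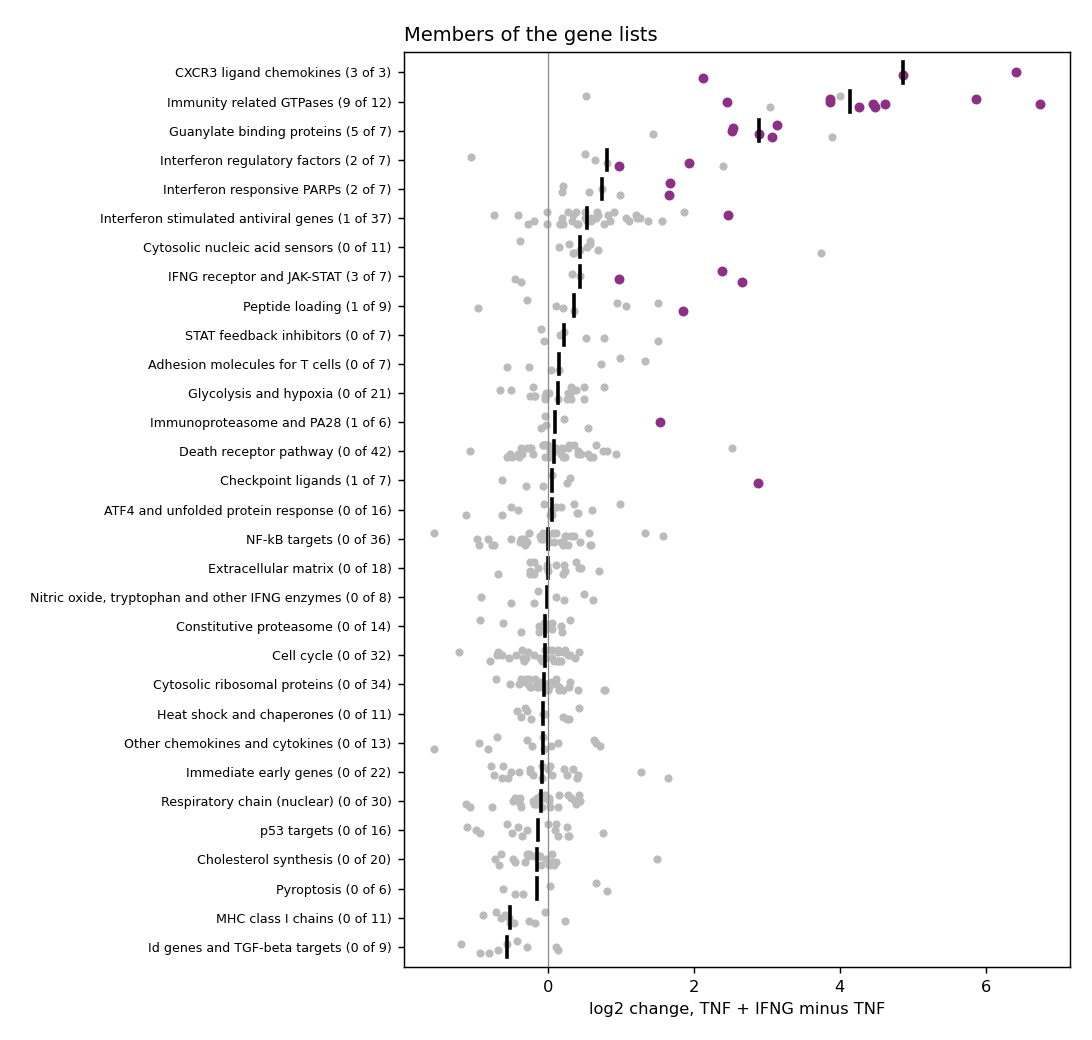
Log2 change with IFNG added to TNF (x axis) for the tested members of 31 gene lists with at least 3 such members (rows); purple points passed the test, grey did not, black ticks are list medians, and brackets count members that rose. Medians run from 4.87 for the CXCR3 ligands to -0.56 for Id genes and TGF-beta targets.

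Another 10 lists, of basic and of inducible cell programmes, held 0 calls, against 0.417% of all genes. They include cell cycle (32 genes), immediate early genes (22), extracellular matrix (18), cholesterol synthesis (20) and ATF4 and unfolded protein response (16). The others are glycolysis and hypoxia (21), respiratory chain (30), cytosolic ribosomal proteins (34), p53 targets (16) and heat shock (11). The median change of these lists lay between -0.15 and 0.14. Of their 220 entries 22 were higher and 21 lower at an unadjusted p under 0.05, against 8.11% and 8.37% of all genes. The 9 Id genes and TGF-beta targets had a median of -0.56, 0 calls and 3 with an unadjusted p under 0.05, all lower. In cholesterol synthesis 5 of 20 were lower at an unadjusted p under 0.05, among them Scd2 (-0.73, adjusted p = 0.119) and Sc5d (-0.67, 0.135). Mvd in the same list was higher by 1.49 ± 0.38 (adjusted p = 0.172). Whether this list or the Id list departs from the 8.37% of all genes that were lower was not tested.

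The remaining genes that rose include Apol6, an apolipoprotein L relative (from -1.97 and -1.57 to 3.51 and 3.16), and Ubd, the ubiquitin-like FAT10. Ubd stood at -0.16 and -0.44 with TNF, 3.22 and 3.49 with both and 0.61 and 0.55 with IFNG (3.66 ± 0.46, adjusted p = 0.0125). The Ubd call was lost with only the TNF and TNF + IFNG groups fitted (adjusted p = 0.0522). Its change was 3.80 without the first TNF library and 3.52 without the second. Batf2, an interferon-responsive leucine zipper factor, and Gm12185 were at the lowest value in both TNF libraries. With both cytokines they stood at 2.34 and 1.55, and at 1.40 and 0.81, so no fold is given. In all, 7 genes that rose had both TNF libraries on the 3 lowest values of the library, and 8 had at least 1. Besides these 2 they are Apol6, Gm4070, Gvin1, the GTPases F830016B08Rik and Gm12250, and Olfr56 with 1 library. The size of their change is uncertain. With only the TNF and TNF + IFNG groups fitted, all of these calls but Apol6 were lost (adjusted p = 0.0682 to 0.296). The U3 small nucleolar RNA copies Rnu3b1, Rnu3b3 and Rnu3b4 share nearly all reads. Rnu3b1 stood at 1.61 and 1.49 with TNF, 3.67 and 4.84 with both, and 3.40 and 3.28 untreated, so the TNF libraries were the low ones (adjusted p = 0.0168, lost without either TNF library). Of the 53 genes that passed, 11 overlap another of them on the same strand, such as Igtp with Irgm2 and Olfr56 with Ifi47, and Gm4070 and Gvin1 have the same value in every library. Of the 50 genes that rose, 47 have 1 annotated position, and 35 of these lie within 500 kb of another, in 12 groups of neighbours on 8 chromosomes. Examples are the GTPases Irgm1, Tgtp1, Tgtp2 and Ifi47 with Olfr56 and Gm12185 at chr11:48861968-49135387, and Mndal, Ifi203, Ifi205 and Ifi211 at chr1:173849126-174031810.

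The 3 genes that fell were Nectin1, Rcc2 and Rsl1d1. Nectin1, a cell adhesion molecule, stood at 3.08 and 2.81 with TNF and at 1.11 and 0.30 with both, a change of -2.24 ± 0.36 (adjusted p = 0.043). Rcc2, a regulator of chromosome condensation, went from 8.81 and 8.59 to 7.72 and 7.77 (-0.96 ± 0.14, adjusted p = 0.0332). Rsl1d1, a nucleolar protein, went from 9.20 and 8.94 to 8.28 and 8.07 (-0.89 ± 0.15, adjusted p = 0.0482). Each of the 3 calls was lost without any one of 7 libraries (2 untreated, 2 IFNG, 2 TNF and the second TNF + IFNG; adjusted p up to 0.285).

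The same cytokine without TNF gives the reference. IFNG alone raised 45 genes and lowered 0 (0.354% and 0%; 646, 5.08%, and 715, 5.62%, at an unadjusted p under 0.05). This count depends on the fit: it was 117 higher and 371 lower with only its own groups fitted, 175 and 122 with library weights, and 28 and 1 without the first IFNG library. In the fit of all libraries both lists shared 37 genes, 74% of the 50 and 82.2% of the 45. All 45 genes raised by IFNG alone had a positive change with an unadjusted p under 0.05 when IFNG was added to TNF. In the other direction this held for 47 of the 50, the exceptions being the 3 Rnu3b copies. The median change of the 50 was 2.68 when added to TNF and 2.66 with IFNG alone, and 25 had the larger fold in each setting. The 13 genes called only on top of TNF were Cxcl11, Ubd, Psmb9, Parp9, Mndal, Mob3c, Gabbr1, Gvin1, Gm4070, Gm12185 and the 3 Rnu3b copies. The 8 called only with IFNG alone were Gm4951, 9930111J21Rik2, Ifi204, Nlrc5, Rnf19b, Rsad2, Rtp4 and Samhd1. For none of these genes did the difference between both settings pass the interaction test. In level, both TNF + IFNG libraries lay above both IFNG libraries for 28 of the 50 (23.2% of all genes) and below for 10 (22.7%). The 50 were chosen for high values in the same TNF + IFNG libraries, which favours the count above. These counts therefore do not measure what TNF adds to IFNG.

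The interaction test asks whether IFNG changed a gene by a different amount with TNF than without. It passed for 2 genes, 1 in each direction (0.00786% each), with 229 higher (1.8%) and 271 lower (2.13%) at an unadjusted p under 0.05, together 500 (3.93%). For Cxcl9 the change with TNF exceeded that without by 4.15 ± 0.32 (adjusted p = 0.00492). For Irf1 it fell short by -2.08 ± 0.17 (adjusted p = 0.00492), with TNF alone already at 9.60 and 9.44. Neither gene passed with the first untreated library left out (adjusted p = 0.0518 each) or the first IFNG library left out (0.0604 each), nor Irf1 with the second IFNG library left out (0.0517). The Cxcl9 difference was 4.03 to 4.28 over the 10 omissions. The 95% interval, before adjustment, was ± 0.83 at the median. The smallest interaction that passed was 2.08 in absolute value, so departures well above 0.83 could also be missed. Cxcl11 (2.08 ± 0.68) and Ubd (2.36 ± 0.66) had positive interactions that did not pass (adjusted p = 0.962 each), and Socs1 a negative one (-1.64, 0.962). Among genes with a mean log2 of at least 2 and an unadjusted p under 0.01, those with the most extreme interactions were mostly predicted genes and pseudogenes, such as Gm13573 (4.49 ± 1.06) and Gm6181 (-6.21 ± 1.18), with adjusted p = 0.962.

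**Figure D4:**
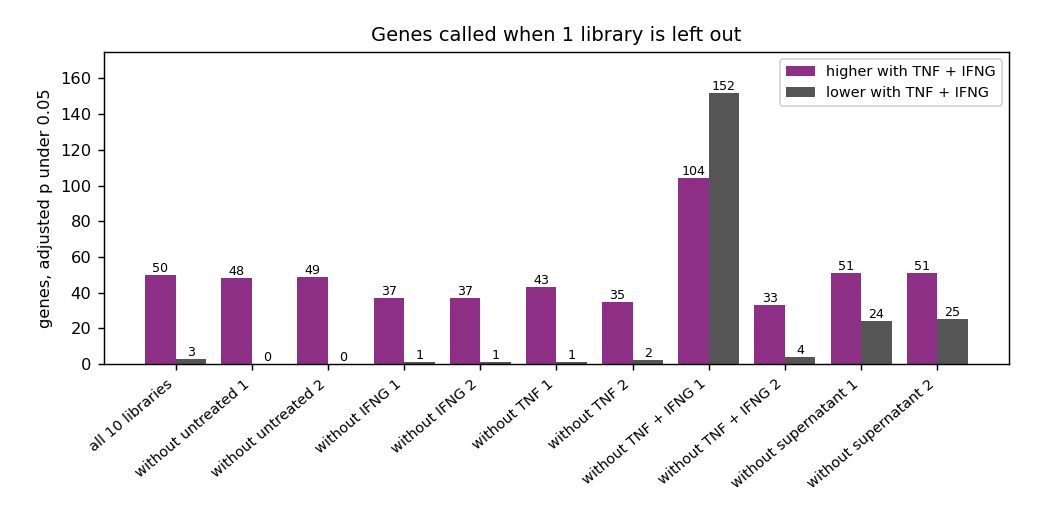
Number of genes past the threshold (y axis) that were higher (purple) or lower (grey) with TNF + IFNG than with TNF, for all 10 libraries and with 1 library left out (x axis). The number higher runs from 33 to 104 and the number lower from 0 to 152, with both maxima when the first TNF + IFNG library is left out.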

How the data were processed

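RNA of MC38 cells was extracted with a NucleoSpin kit and sequenced as QuantSeq 3' libraries, per the labels' protocols. Tools in the submitters' processing notes are HISAT2, Subread, featureCounts, limma, FastQC and cutadapt 1.7, with builds mm10 and GRCm38; settings and the use of strand are not given in the sources used here. Normalized log2 CPM values of 10 in vitro libraries were deposited; the unit was read from the values, whose linear sum is 998481 to 998505 in every library. Equal distributions hide shifts shared by most genes.

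Groups came from the labels. All 5 groups of 2 libraries were fitted with limma 3.58.1 (R 4.3.3, intensity trend; 5 residual and 3.74 prior degrees of freedom), after a filter (log2 of at least 0 in 2 libraries) that removed 0 of 12721 genes; 1 gene with a constant value was not tested. P-values are 2-sided. Another 15 names had turned into dates and are not named. The procedure was tested on simulated data. Implied depth assumes that every whole count occurs among low values. Positions are from GENCODE M21.

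Some items are not reported here. The members and gene lists were chosen with earlier results of these data known. Named genes are the 15 highest calls and the lowest ones (up to 12; 3 were found), interaction calls (with the 4 most extreme each way at unadjusted p under 0.01 and mean log2 of at least 2), and list members with large changes or described roles. Other genes named (the Rnu3b copies, Gm4070, Gvin1, Mob3c, Gabbr1, Mndal, Rnf19b, Ifi203, Ifi204, Ifi205 and Ifi211) and the 4 promoter windows were chosen after their values were seen. Alternatives changed the groups fitted, trend, robustness, filter, pseudocount, weights, centring, replicate block and each library.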

Additional observations from a re-analysis of the deposited data

Results flagged for a closer look

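Cxcl9 and Irf1 were flagged because the effect of IFNG differed between cells with and without TNF by the interaction test. The difference was 4.15 on the log2 scale for Cxcl9, whose change was larger with TNF, and -2.08 for Irf1, whose change was smaller with TNF (adjusted p = 0.00492 each, limma). All 4 groups of 2 libraries are separated for Cxcl9 and for Irf1, and each call was lost when the first untreated library, or the first IFNG library, was left out (adjusted p = 0.0518 and 0.0604).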

How the results depend on the processing

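Depth and 2 libraries a group limit these results. Changes well under 2-fold were mostly not detectable, and larger ones could be missed. Of the 53 genes past the threshold, 13 passed under all 19 alternatives and 26 in all 10 leave-one-out fits, with 0 changes of sign. Where a left-out library leaves its group with 1, that lone library is assumed to vary like the other groups. The cause of the following shifts was not tested.

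The total for TNF + IFNG against TNF was 16 with only the 2 groups fitted (15 shared with the 53), and leave-one-out gave 37 to 256. With library weights it was 36 and with robust moderation 72 (59 higher, 13 lower); without either supernatant library it was 75 and 76, with 24 and 25 lower. The interaction total of 2 was 1 without the intensity trend, where Irf1 was lost (adjusted p = 0.0883), and 0 to 9 in leave-one-out. The total of 45 for IFNG alone was 488 with only its groups fitted (117 higher, 371 lower), 297 with library weights (175 higher, 122 lower) and 29 to 50 in leave-one-out.

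With the replicate number as a block, 38 genes passed, all higher, and Nectin1, Rcc2 and Rsl1d1 were lost; the interaction total stayed at 2 and IFNG alone had 42. Replicate differences of TNF and TNF + IFNG correlated at r = -0.0322 over 9560 genes, so they show no pairing of these 2 groups by number. Those of TNF + IFNG and supernatant correlated at -0.399, and those of IFNG and TNF + IFNG at 0.12. Other pairs of groups lay between -0.13 and 0.0692. What links the TNF + IFNG and supernatant replicates was not tested.

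Signs changed only among genes that did not pass. Without the first TNF library, Socs1 was 0.13 and Tnfaip3 0.09. Without the second TNF library, Fas was -0.30 and Gsdmd -0.03. Over all left-out libraries Socs1 ran from -0.48 to 0.28, Tnfaip3 from -0.70 to 0.57, H2-D1 from -0.58 to 0.062, Psmb8 from -0.37 to 0.31, Gsdmd from -0.063 to 0.13, Ifngr1 from -0.93 to 0.19 and Fas from -0.30 to 0.48. The highest values of Socs1, Tnfaip3, H2-D1 and Psmb8, and the lowest of Gsdmd, came without the first TNF + IFNG library, and that of Ifngr1, with -0.13 for Fas, without the second.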
